A study of Bos taurus with 18 samples.

Results

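The miR-374 family of bovine plasma is described here through its 2 members measured in both fractions, *bta-miR-374a* and *bta-miR-374b*, of 1071 miRNAs in the count table. The pair was chosen by the exosomal CPM of *bta-miR-374a*, which is low at 30 months, so exosomal values at that age are given as a description, with no test. The same holds for its exosomal levels at 20 and 25 months, from which that fall is seen. Plasma came from 3 Japanese Black steers kept under 1 feeding system and bled at about 20, 25 and 30 months of age. From 1 mL of each plasma sample, a spin-column kit gave an exosomal fraction (EX, RNA from small vesicles that cells release) and a non-exosomal free circulating fraction (FC, RNA bound to proteins outside vesicles). Small RNA sequencing of each fraction at each age gave 18 libraries, 3 per group. The same 3 animals stand in all 6 groups, no treatment is named, and age goes together with time on the fattening diet. Steers are numbered by the replicate number of the library, which is assumed to mark the same animal at each age.

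A miRNA binds messenger RNAs mainly through its seed, bases 2 to 8 from the 5′ end, and lowers the amount of protein they give. Members of a family share the seed and therefore much of their predicted target range. In humans and mice, the miR-374 genes lie on the X chromosome within the noncoding gene FTX, close to the genes of miR-545 and miR-421. Human miR-374a is known for repressing inhibitors of the Wnt pathway in breast cancer cells, and miR-421 for repressing the DNA damage kinase ATM. Plasma miRNAs come from blood cells, vessel walls and solid organs, and both members are made in many tissues.

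The mature sequences, written 5′ to 3′ with the seed in capitals, show how close the members are to each other and to the 4 miRNAs of the neighbouring genes.
bta-miR-374a: uUAUAAUAcaaccugauaagug
bta-miR-374b: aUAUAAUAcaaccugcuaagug
bta-miR-374c: uUACAAUAcaaccugauaagu
bta-miR-545-5p: uCAGUAAAuguuuauuggaug
bta-miR-545-3p: aUCAACAAacauuuauugugug
bta-miR-421: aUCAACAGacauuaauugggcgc

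Counting positions from the 5′ end, *bta-miR-374a* and *bta-miR-374b* differ at 2 of 22 positions, by the substitutions U1A and A16C (base of *bta-miR-374a* first). Both lie outside the seed, which the members share with each other and with 0 other miRNAs of the table. *bta-miR-374c* differs from *bta-miR-374a* at 1 of 21 positions, by U4C, which falls inside the seed. Reads from these near-identical miRNAs can be shared between them. The deposited count of *bta-miR-374a* was not a whole number in 10 of 18 libraries, that of *bta-miR-374b* in 7 and that of *bta-miR-374c* in 7, as when a read is divided among its matches. In the cattle RefSeq gene table (ARS-UCD2.0), the genes lie on chromosome X in the order MIR374A, MIR545, MIR374B, MIR421, with MIR374C overlapping MIR374A. All 5 genes overlap 1 long noncoding RNA gene, LOC104970537.

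Each library had 991354 to 2778618 counts in EX and 3615234 to 12088735 in FC, with the lowest totals at 30 months in both fractions. Abundances are given in CPM, counts scaled to the same total in every library, so they are relative levels. The detection floor, taken as 3 counts, lies at 1.08 to 3.03 CPM for the EX libraries and 0.248 to 0.83 CPM for the FC libraries, and it covers counting error only, since PCR copies are not independent molecules. The 30 months libraries stood apart in how many miRNAs had low counts. Whole counts between 5 and 20 were held by 39 to 87 miRNAs in the EX libraries of 20 and 25 months and by 5 to 9 in those of 30 months. In FC these numbers were 93 to 130 and 11 to 48. Both members pass the selection at CPM > 5 in at least 3 of 9 libraries in each fraction, which keeps 345 miRNAs in EX and 358 in FC. Ordered by abundance within each library, *bta-miR-374a* was number 68 to 104 in FC at 20 and 25 months and number 110 to 120 at 30 months. In EX it was number 76 to 99 at 20 and 25 months and number 146 to 175 at 30 months. *bta-miR-374b* was number 130 to 160 in FC at 20 and 25 months and number 172 to 225 at 30 months.

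The question of the age comparisons is how plasma miRNA levels vary over the fattening period. In FC, both members fell from 25 to 30 months. *bta-miR-374a* was at 790, 950 and 1338 CPM in steers 1, 2 and 3 at 25 months, and at 325, 318 and 217 CPM at 30 months. All 3 steers were lower at 30 months, and the lowest library at 25 months lay above the highest at 30 months. The mean went from 1026 ± 282 to 287 ± 60.3 CPM (mean ± SD, n = 3), 28.0% of the earlier level. The fitted log2 fold change was −1.92 with a standard error of 0.404 and a 95% interval of −2.84 to −1.005 (edgeR quasi-likelihood test, FDR = 0.0194). *bta-miR-374b* was at 114, 136 and 142 CPM at 25 months and at 71.3, 22.7 and 27.3 CPM at 30 months. Again all 3 steers were lower and the ranges did not overlap. Its mean went from 131 ± 14.5 to 40.5 ± 26.8 CPM (n = 3), a level 3.23-fold lower. The fitted log2 fold change was −1.88 with a standard error of 0.515 and a 95% interval of −3.05 to −0.71 (edgeR quasi-likelihood test, FDR = 0.0353).

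Both members thus pass FDR < 0.05 and |log2 fold change| > 1, the rule for differentially existed miRNAs (DE-miRNAs), against 10.1% of the 358 miRNAs tested that were called lower. Ranges of 25 and 30 months that do not overlap, with 30 months lower, were held by 21.8% of the miRNAs tested. Ordered from the most negative fold change, *bta-miR-374a* was number 33 and *bta-miR-374b* number 36, and the median over all miRNAs was −0.20. The calls rest in part on single animals. Without steer 3, neither member was called (*bta-miR-374a* −1.33, FDR = 0.0734; *bta-miR-374b* −1.39, FDR = 0.167), and without steer 2 *bta-miR-374b* was not called (−1.56, FDR = 0.0629; edgeR quasi-likelihood tests).

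**Figure D1:**
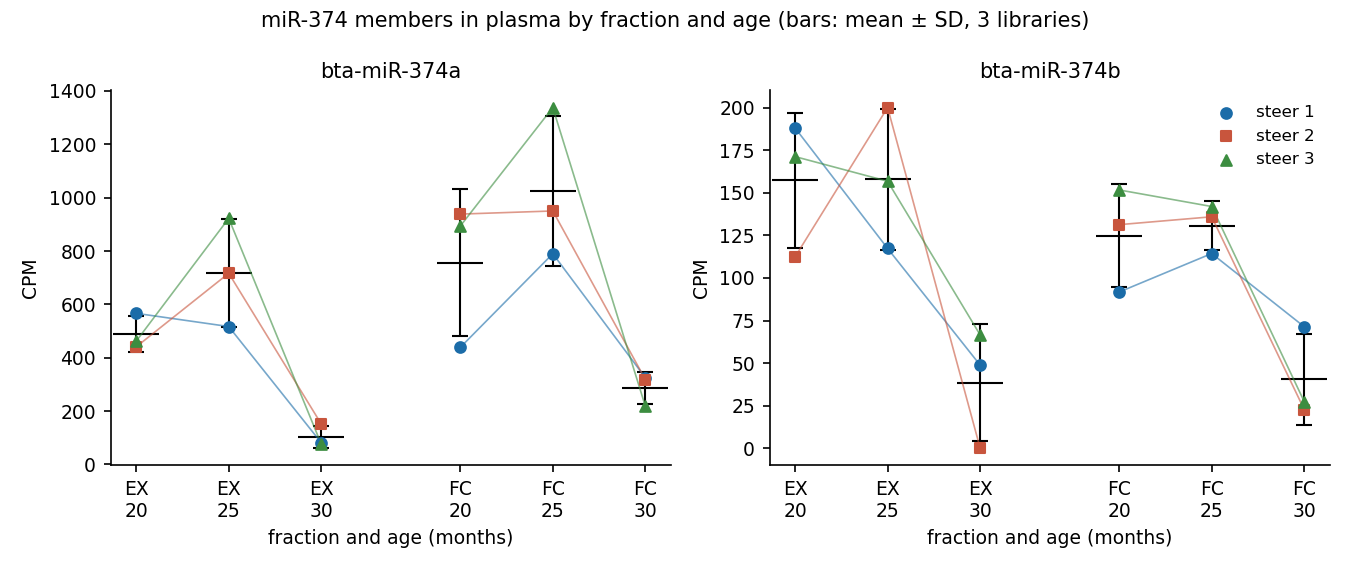
CPM (y axis, linear from 0, a scale of its own for each miRNA) of *bta-miR-374a* and *bta-miR-374b* in each library by fraction and age in months (x axis), with 1 symbol per steer, lines joining the libraries of a steer within a fraction, and bars for the mean ± SD of 3 libraries. In both fractions and for both members, every library of 30 months lies below every library of 20 and 25 months, and steer 2 has *bta-miR-374b* at 0 in EX at 30 months.

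Against 20 months, the FC levels at 30 months were also lower, but neither member passed the FDR. *bta-miR-374a* was at 438, 939 and 893 CPM at 20 months, with a mean of 757 ± 277 CPM (n = 3). The level at 30 months was 37.9% of this, with a log2 fold change of −1.30 and a 95% interval of −2.20 to −0.40 (edgeR quasi-likelihood test, FDR = 0.0749). *bta-miR-374b* was at 91.7, 131 and 152 CPM at 20 months, with a mean of 125 ± 30.5 CPM. The level at 30 months was 32.4% of this, with a log2 fold change of −1.68 and a 95% interval of −2.85 to −0.51 (edgeR quasi-likelihood test, FDR = 0.0754). Every steer was lower at 30 months and the ranges were apart for both members, as for 22.1% of all miRNAs tested, while 4.19% were called lower. This comparison shares its 30 months libraries with the one above. It sits close to the threshold, and without the steer block the value of *bta-miR-374b* was −1.67, with FDR = 0.0489 by the same test.

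Between 20 and 25 months, neither member was called in FC, nor was *bta-miR-374b* in EX. In FC, *bta-miR-374a* had a log2 fold change of 0.62 with a 95% interval of −0.26 to 1.51, and *bta-miR-374b* of 0.20 with −0.89 to 1.29 (edgeR quasi-likelihood test, FDR = 0.999 for both). The values of *bta-miR-374a* were higher at 25 months in 3 of 3 steers, and the ranges overlapped. In this comparison, 0% of the 358 miRNAs were called by edgeR and 0 by DESeq2, while 13 had an unadjusted p below 0.05 in edgeR. In EX, *bta-miR-374a* was at 567, 441 and 462 CPM at 20 months and at 517, 717 and 923 CPM at 25 months. Steers 2 and 3 were higher at 25 months and steer 1 was lower. Its fitted log2 fold change was 0.67 with a 95% interval of −0.22 to 1.57, given with no test since the choice of the family used these levels. *bta-miR-374b* was at 188, 112 and 171 CPM at 20 months in EX and at 117, 200 and 157 CPM at 25 months. The order of the steers turned around between the ages, and the log2 fold change of 0.23 had an interval of −2.46 to 2.93 (edgeR quasi-likelihood test, FDR = 0.997). Of all miRNAs tested, 0.29% were called in EX. The tested intervals, those of both members in FC and of *bta-miR-374b* in EX, reach past 1 on the log2 scale, so a difference of that size cannot be told from none with 3 steers.

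**Figure D2:**
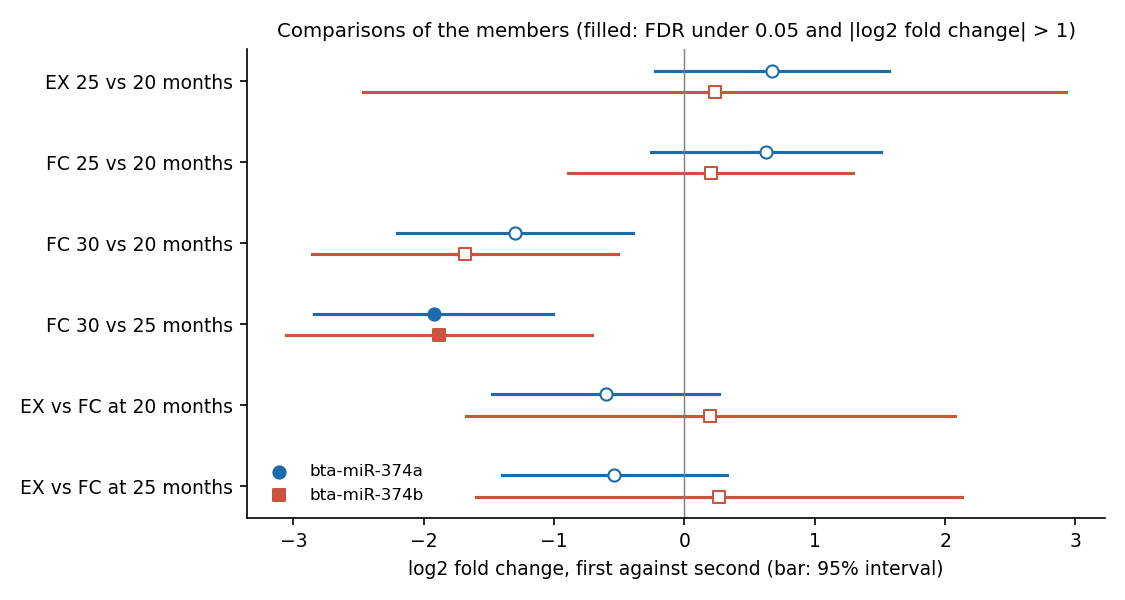
Fitted log2 fold changes (x axis, first group against second) of *bta-miR-374a* (circles) and *bta-miR-374b* (squares) by comparison (y axis), with bars for the 95% interval and filled symbols where FDR < 0.05 and |log2 fold change| > 1; the open circles of comparisons with EX are a description. The 2 filled symbols are those of FC at 30 against 25 months, at −1.92 and −1.88, and the widest bars are those of *bta-miR-374b* where EX libraries enter the fit.

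The values that chose the family are those of *bta-miR-374a* in EX at 30 months, against its earlier EX levels. *bta-miR-374a* was at 81.2, 151 and 75.7 CPM in steers 1, 2 and 3, a mean of 103 ± 42.1 CPM (n = 3). The mean was 490 ± 67.4 CPM at 20 months and 719 ± 203 CPM at 25 months, so that 14.3% of the level of 25 months remained. The fitted log2 fold change was −3.31 (standard error 0.427) against 25 months and −2.63 (0.412) against 20 months. *bta-miR-374b* was at 48.8, 0 and 66.5 CPM at 30 months, against means of 157 ± 39.8 and 158 ± 41.4 CPM at 20 and 25 months. Steer 2 had 0 counts of it, in a library whose floor is 3.03 CPM. The count that recurs most in that library, described below, was 76 of 991354. A 0 of *bta-miR-374b* there cannot be told from the levels of steers 1 and 3. The fitted log2 fold change against 25 months was −2.91 with a standard error of 1.34, and without steer 2 it was −1.77. For both members the ranges of 25 and 30 months did not overlap, as for 19.4% of the 345 miRNAs tested in EX, and 10.4% were called lower. Against 20 months, where the ranges were also apart, these shares were 21.4% and 9.86%. The choice of the family used no threshold in CPM, so there are no members just inside or outside that choice.

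The counts behind these levels were small. At 25 months the EX libraries had 1163.5 to 2248.5 counts of *bta-miR-374a*, and at 30 months 161.5, 150 and 82. The most common whole count of a library is the count that has the largest number of miRNAs within a factor of 1.25 of it. In the EX libraries of 20 and 25 months it was 12 to 45, which reaches past the lowest value at 30 months. In those of 30 months it was 84, 76 and 41, with 37, 36 and 41 miRNAs near it, of 172, 154 and 192 with a whole count of at least 5. The counts of *bta-miR-374a* were 1.92, 1.97 and 2 times this number, and those of *bta-miR-374b* were 1.15, 0 and 1.76 times. In EX at 30 months, the members thus lay within a factor of 2 of the count that recurs most in their library, or at 0. In FC the most common counts were 6 to 17 at 20 and 25 months and 20, 30 and 20 at 30 months. In FC at 30 months, *bta-miR-374a* had 1584, 1150 and 826.5 counts, 79.2, 38.3 and 41.3 times the most common count. *bta-miR-374b* had 347.5, 82 and 104 counts, 17.4, 2.73 and 5.20 times. PCR copies of few molecules can give recurring counts, and their part in the exosomal levels was not tested. With the counts of each 30 months library divided by its most common count, the EX fold change against 25 months was −3.49 (standard error 0.482) for *bta-miR-374a* and −2.39 (0.701) for *bta-miR-374b*. The FC comparison with 25 months gave, with divided counts, −1.96 for *bta-miR-374a* (FDR = 0.00225) and −1.73 for *bta-miR-374b* (FDR = 0.0157, edgeR quasi-likelihood tests).

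**Figure D3:**
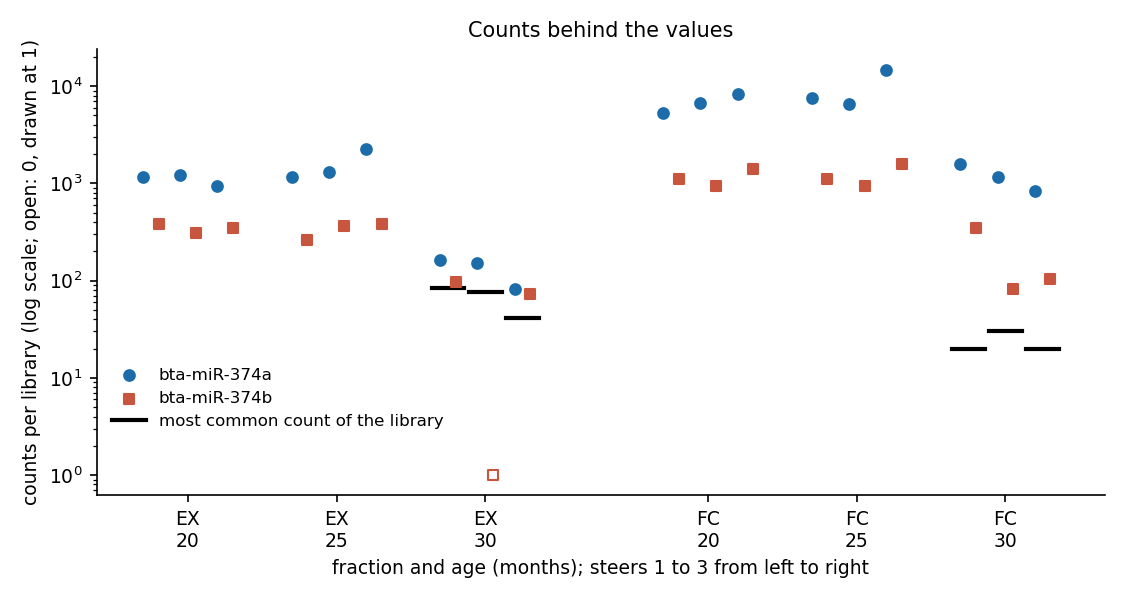
Deposited counts per library (y axis, log scale, with the count of 0 drawn as an open square at 1) of *bta-miR-374a* (circles) and *bta-miR-374b* (squares) by fraction and age in months (x axis), steers 1 to 3 from left to right, with lines for the most common count of each 30 months library. In EX at 30 months the symbols sit at or within a factor of 2 above the lines or at 0, whereas in FC *bta-miR-374a* is 38.3 to 79.2 times above them.

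The order of the groups differed between the members. For *bta-miR-374a*, the means ran from FC at 25 months through FC at 20, EX at 25 and EX at 20 to FC at 30 and EX at 30 months. Neighbours among the first 4 overlapped, and the last 2 groups stood apart from the group before them. For *bta-miR-374b*, the means ran from EX at 25 and 20 months through FC at 25 and 20 to FC and EX at 30 months. Neighbours overlapped, except that FC at 20 months lay wholly above FC at 30 months.

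Between the fractions at the same age, *bta-miR-374b* was not called at 20 or 25 months, and the values of *bta-miR-374a* are a description. At 25 months, *bta-miR-374a* was lower in EX than in FC in 3 of 3 steers, with overlapping ranges and a log2 fold change of −0.54 (95% interval −1.40 to 0.32, edgeR fit over all 18 libraries). *bta-miR-374b* was higher in EX in 3 of 3 steers, with overlapping ranges and a log2 fold change of 0.26 (−1.60 to 2.13, edgeR quasi-likelihood test over all 18 libraries, FDR = 0.964). At 20 months the values were −0.60 (−1.48 to 0.27) for *bta-miR-374a* and 0.20 (−1.68 to 2.08, FDR = 0.984, edgeR quasi-likelihood test) for *bta-miR-374b*. These fits block by steer and do not pair the fractions of a plasma sample. With a block by plasma sample, *bta-miR-374a* had −0.54 at 25 months (standard error 0.286, against 0.403) and −0.61 at 20 months (0.295). *bta-miR-374b* had 0.23 (0.853) and 0.28 (0.869) and was again not called. Of the 330 miRNAs selected in both fractions, 1.21% were called at 20 months and 1.82% at 25 months. At 30 months, where EX values chose the family, the log2 fold change of EX against FC was −1.79 (standard error 0.42) for *bta-miR-374a* and −0.46 (0.90) for *bta-miR-374b*, given with no test. At that age *bta-miR-374b* had a mean of 38.4 ± 34.4 CPM for EX against 40.5 ± 26.8 CPM for FC.

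The balance of the members was then followed within each library, as the ratio of *bta-miR-374a* to *bta-miR-374b*. In FC it was 6.91 to 9.43 at 25 months (mean 7.78 ± 1.43, n = 3) and 4.56 to 14.0 at 30 months (8.84 ± 4.80). Steers differed in direction, with 2 of 3 lower at 30 months. The mean log2 difference was 0.02 with an SD of 0.82, below the spread between steers (exact two-sided sign-flip permutation test over 3 steers, p = 1, with 0.25 the smallest p possible). In EX the mean ratio was 3.21 at 20 months and 4.63 at 25 months. At 30 months it was 1.14 and 1.67 in the 2 libraries that had *bta-miR-374b*, both below every ratio of the EX libraries of 20 and 25 months. Steer 2 had 150 counts of *bta-miR-374a* and 0 of *bta-miR-374b*, which gives no ratio. With 76 as the most common count of that library, the direction in steer 2 cannot be read. The EX values at 30 months chose *bta-miR-374a*, so these ratios were not tested.

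The miRNAs of the neighbouring genes did not share 1 pattern with the members. *bta-miR-421*, from the gene beside MIR374B, was at 264, 319 and 237 CPM in FC at 25 months and at 526, 349 and 336 CPM at 30 months. These values were higher in all 3 steers with ranges apart, as for 20.7% of miRNAs tested, but the log2 fold change of 0.40 was not called (standard error 0.289, edgeR quasi-likelihood test, FDR = 0.338). Its 95% interval, −0.26 to 1.05, lies wholly above that of *bta-miR-374b* in the same fit. At 20 months *bta-miR-421* was at 580, 255 and 449 CPM in FC. Against that age its level at 30 months was lower in 2 of 3 steers, with a log2 fold change of −0.04 (edgeR quasi-likelihood test, FDR = 0.95). The ratio of *bta-miR-374b* to *bta-miR-421* in FC was 0.426 to 0.598 at 25 months and 0.065 to 0.136 at 30 months. At 20 months it was 0.158 to 0.514, also above every library of 30 months. In EX at 30 months, *bta-miR-421* was at 807, 355 and 607 CPM, against 224, 500 and 273 CPM at 25 months, so 2 of 3 steers were higher. In EX at 20 months it was at 789, 290 and 640 CPM.

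*bta-miR-545-5p*, from the gene between those of the members, was at 18.6, 18.1 and 13.3 CPM in FC at 25 months and at 15.2, 20.2 and 33.4 CPM at 30 months. Steers 2 and 3 were higher and steer 1 was lower, and the log2 fold change of 0.32 was not called (standard error 0.477, edgeR quasi-likelihood test, FDR = 0.646). *bta-miR-545-3p*, from the other arm of the same hairpin, had 81, 71 and 151 counts in FC at 25 months and 0, 0 and 22 at 30 months, lower in all 3 steers with ranges apart. Its fitted log2 fold change of −3.68, number 5 from the most negative of the 358, was larger in size than those of the members, but with a standard error of 1.35 and a 95% interval of −6.75 to −0.60 it was not called (edgeR quasi-likelihood test, FDR = 0.0838). In EX it had 14, 17 and 24 counts at 25 months and 0 in all 3 libraries at 30 months. The most common counts of those 30 months libraries were 84, 76 and 41, so 0 there cannot be told from an unchanged level. In FC, the 22 counts of steer 3 were 1.1 times the most common count of that library. *bta-miR-374c* had 9, 12.5 and 17.67 counts in FC at 25 months and 2, 0.5 and 0.5 at 30 months. It stayed at or below 4.92 CPM in all 18 libraries and was selected in neither fraction.

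**Figure D4:**
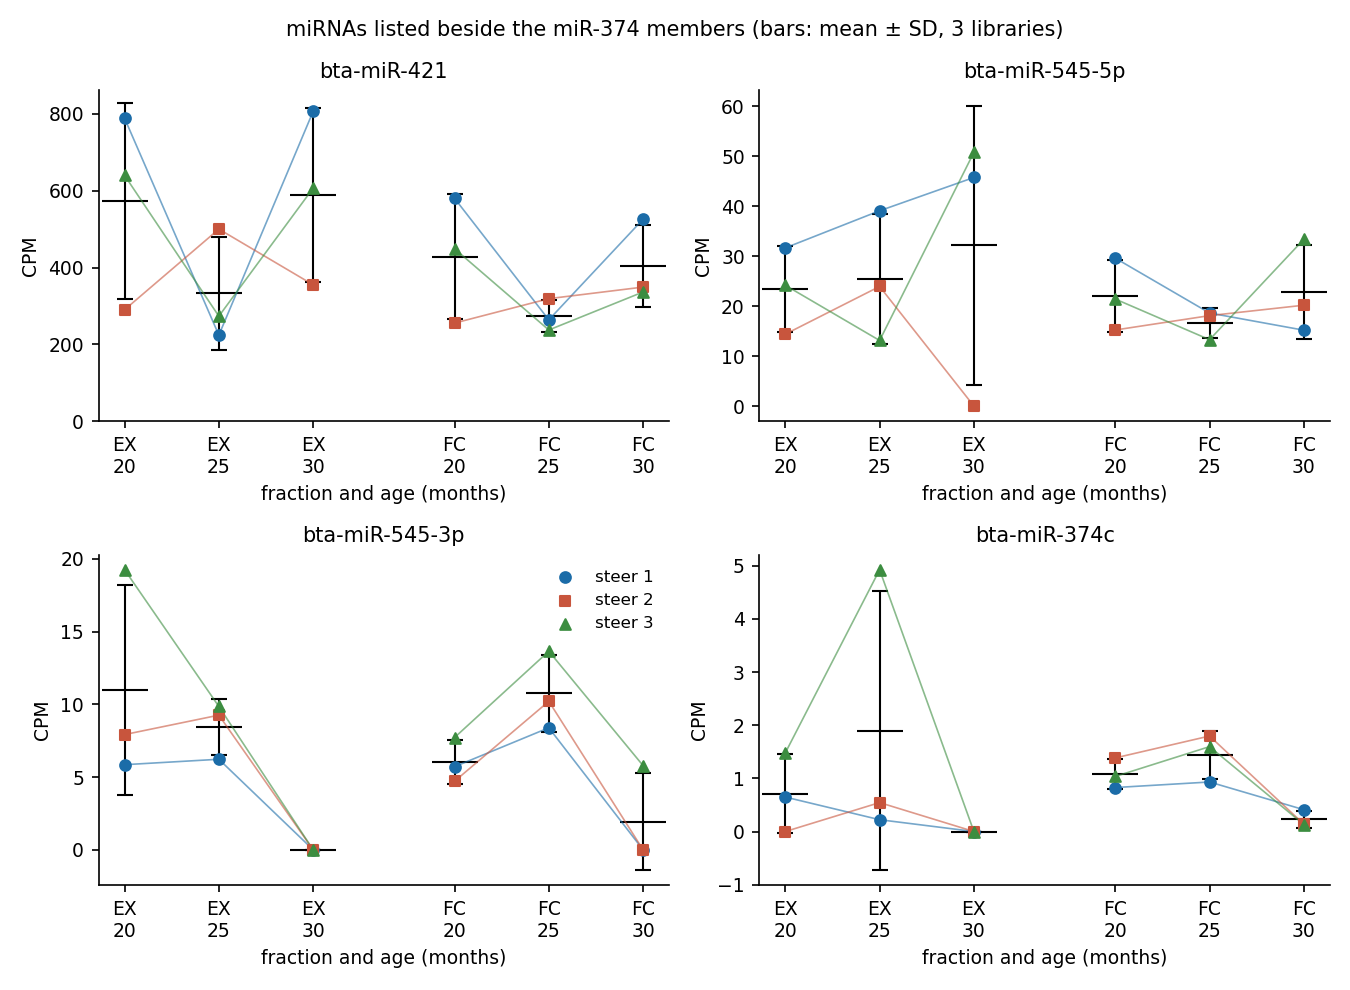
CPM (y axis, a scale of its own for each miRNA) of the miRNAs from the neighbouring genes in each library by fraction and age in months (x axis), with 1 symbol per steer, lines joining a steer within a fraction and bars for the mean ± SD of 3 libraries. In FC, *bta-miR-421* lies at 237 to 319 CPM at 25 months and 336 to 526 CPM at 30 months, while at 30 months *bta-miR-545-3p* and *bta-miR-374c* are at 0 in every EX library and *bta-miR-545-3p* is above 0 in FC in steer 3 alone.

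**Figure D5:**
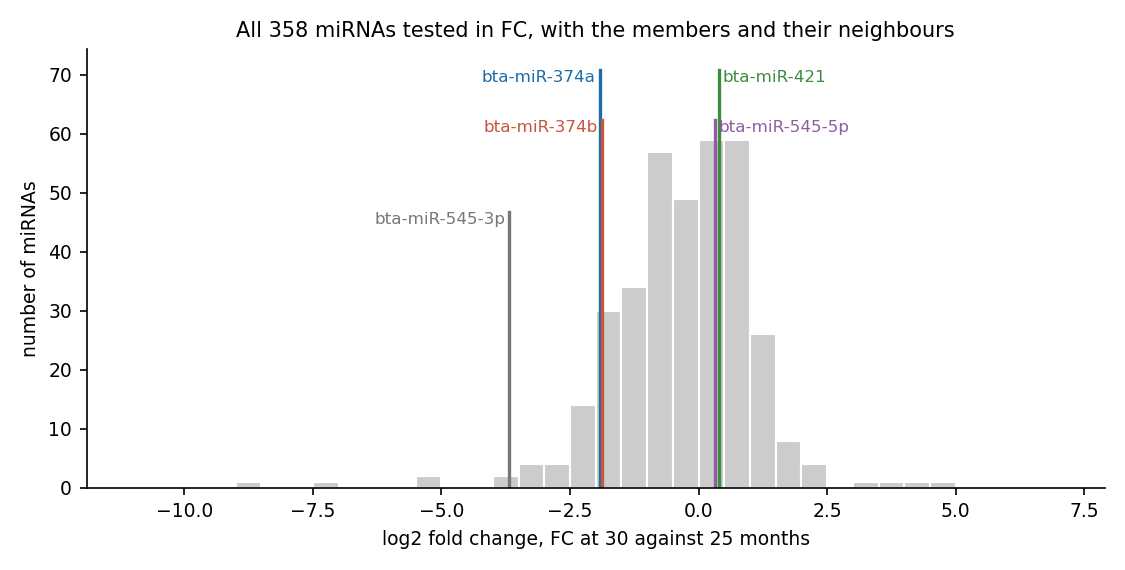
Number of miRNAs (y axis) by log2 fold change of FC at 30 against 25 months (x axis) for the 358 miRNAs tested, with vertical lines, of arbitrary height, at the members and at the neighbours that were tested. The lines of *bta-miR-374a* and *bta-miR-374b* nearly coincide at −1.92 and −1.88, that of *bta-miR-545-3p* lies at −3.68, and those of *bta-miR-421* and *bta-miR-545-5p* lie above 0.

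The patterns most like those of the members were found by Pearson correlation of log2(CPM + 1) over all 18 libraries, among 329 other miRNAs selected in both fractions. The libraries share 3 steers and the depth and EX levels of 30 months, so these values are a description. Closest to *bta-miR-374a* were *bta-miR-1277* (r = 0.946), *bta-miR-2285bf* (0.936) and *bta-miR-2285am-5p* (0.905), with 2 miRNAs predicted from these reads and not named here at 0.918 and 0.904. Closest to *bta-miR-374b* were *bta-miR-139* (0.948), *bta-miR-339a* (0.933), *bta-miR-6524* (0.932), *bta-miR-2284aa* (0.916) and *bta-miR-339b* (0.906). Over all 18 libraries, *bta-miR-374b* was number 72 for *bta-miR-374a* (r = 0.58), an order that includes the EX values behind the choice of the family and the value of *bta-miR-374b* at 0. Within the 9 EX libraries the r of the members was 0.54, and within the 9 FC libraries it was 0.88. In FC the 5 miRNAs listed for *bta-miR-374b* had r from 0.66 to 0.87 with it, and the 5 for *bta-miR-374a* had r from 0.74 to 0.95 with it. These miRNAs were picked over all 18 libraries, so the values give no order within FC. *bta-miR-421* had, over all 18 libraries, r = −0.51 with *bta-miR-374a* and 0.04 with *bta-miR-374b*.

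The members are poor in G and C, which make up 27.3% of the bases of *bta-miR-374a* and 31.8% of those of *bta-miR-374b*. Of the miRNAs tested in FC, 4.75% have a GC content no higher than the former and 12.3% no higher than the latter. The other 42 miRNAs with a GC content up to that of *bta-miR-374b* had a median log2 fold change of −0.67 in FC at 30 against 25 months, with 31 of them below 0. The median of the remaining 314 was −0.15. Of the low-GC miRNAs 11.9% were called lower, and of the remaining ones 9.24%. In EX the medians were −1.65 over 40 low-GC miRNAs and −0.36 over the other 303. In FC both members lay below the low-GC median. The part of base composition in their change was not tested.

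Levels of miRNAs known from blood cells and liver moved alongside in part. The summed level of *bta-miR-150* and *bta-miR-342*, known from lymphocytes, was 80690 to 230827 CPM in FC at 25 months and 14651 to 26926 CPM at 30 months. Both were called lower, as were 10.1% of all miRNAs tested (log2 fold changes −3.38 and −1.81, FDR = 0.0136 and 0.0353, edgeR quasi-likelihood test). In EX the sum of *bta-miR-150* and *bta-miR-342* was 113415 to 324692 CPM at 25 months and 13723 to 27464 CPM at 30 months. The sums in FC for 3 miRNAs known from red cells were 18948 to 46802 and 21521 to 34381 CPM. Of these 0 of 3 were called, against 15.6% of all miRNAs tested that were called in either direction. In the red cell list, *bta-miR-451* had a log2 fold change of −1.68 (FDR = 0.0516, same test), near that of the members, *bta-miR-144* had −0.56 and *bta-miR-486* had 0.41. For 3 known from platelets and myeloid cells the sums were 18910 to 66476 and 59794 to 73366 CPM, again with 0 of 3 called. For 2 known from liver they were 18960 to 75397 and 23010 to 97366 CPM, with *bta-miR-885* called lower (log2 fold change −7.14, FDR = 0.00673) and *bta-miR-122* not called (0.72, FDR = 0.287, same test). In EX at 25 and 30 months, the sums were 28558 to 92244 and 34776 to 54074 CPM for the red cell list. They were 20998 to 55881 and 43485 to 57595 CPM for the platelet and myeloid list, and 12268 to 73054 and 35472 to 108600 CPM for the liver list. The ranges of these 3 lists overlapped between the ages in both fractions, whereas those of the lymphocyte list did not. Of single miRNAs tested, 21.8% in FC and 19.4% in EX had ranges apart with 30 months lower. No listed miRNA was at 0 in all libraries of a group. Fewer cells that release the members and less of them per cell cannot be told apart in plasma, and the part of any cell type in the fall of the members was not tested.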

How the data were processed

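The authors trimmed reads with cutadapt 5.0 and Trimmomatic 0.39, mapped them to a cattle genome built from 1 steer and counted miRNAs with miRDeep2. They deposited expected counts, which are not whole where reads are shared, and CPM values, used here as a signal scaled to library totals. In 4 FC libraries the lower count rows stood 1 row away from the CPM rows and were recomputed from CPM (77 to 101 rows), none of them a member or neighbour. These were all FC libraries of 30 months and that of steer 3 at 25 months. The FC shares and orders over all miRNAs thus rest on the CPM rows, and which rows the authors meant is not known. Counts were rounded, selected at CPM > 5 in at least 3 of 9 libraries per fraction, scaled by TMM, and fitted with steer as a block in edgeR 4.0.16 (R 4.3.3), adjusted over all miRNAs tested by Benjamini and Hochberg. DESeq2 1.42.0 was an alternative. Python 3.11.15 with scipy 1.17.1 made the other values.

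The replicate numbers were taken to pair the libraries, because the study lists the same 3 animals at each age. The sample titles give only a number within each age, so this pairing is assumed. Age-adjusted profiles correlated at 0.12 within and −0.06 between steers in FC, and at 0.02 and −0.01 in EX. No library was a copy of another of its group (chi-square per degree of freedom at least 198 over the 18 pairs within groups). Members and lists were chosen with earlier results of these data known. The named miRNAs are the members, their gene neighbours or seed mates, the 5 most alike by correlation and the cell lists. The gene table and the files use different builds, so no coordinates are given.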

Additional observations from a re-analysis of the deposited data

How the results depend on the processing

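In FC at 30 against 25 months, both members kept their call under 9 alternatives to normalization, filter, test, block and counts (*bta-miR-374a* −2.05 to −1.79, *bta-miR-374b* −1.95 to −1.73). Leaving out 1 steer gave −2.31 to −1.33 and −2.65 to −1.39, with 2 and 1 of 3 calls kept. At 30 against 20 months, *bta-miR-374a* passed with library totals only (−1.32, FDR = 0.0495), and both members passed (*bta-miR-374a* first) in DESeq2 (−1.28, −1.67), the likelihood ratio test (−1.30, −1.68), with no filter (−1.39, −1.78), with CPM > 5 in all libraries (−1.31, −1.69) and with 30 months counts divided by the most common count (−1.38, −1.56). Without the replicate block *bta-miR-374b* passed (−1.67), and this pairing changed no other call of the members. Leaving out 1 steer gave −1.81 to −0.97 and −2.54 to −1.18, and without steer 1 *bta-miR-374b* passed (FDR = 0.0385). In EX, leaving out 1 steer gave, at 30 against 25 months, −3.68 to −2.80 and −3.86 to −1.77, and against 20 months −2.92 to −2.51 and −3.51 to −1.89. At 25 against 20 months in EX the range for *bta-miR-374b* was −0.12 to 0.51, with the sign reversed without steer 2. The log2 ratio of the members in FC became −0.193 with a pseudocount of 10 CPM in place of 1, and −0.444 to 0.336 with 1 steer left out. Why these values moved was not tested.

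The number of miRNAs called in FC at 30 against 25 months was 56, and 26 without steer 1 and 10 without steer 3. At 30 against 20 months it was 25, and 52 in DESeq2, 53 in the likelihood ratio test, 52 with no filter, 45 with CPM > 5 in all libraries, 44 with divided counts, 8 without steer 1 and 5 without steer 2. For EX at 25 against 20 months it was 1, with 0 to 3 under the alternatives. Between the fractions at 20 months it was 4, with 7 in DESeq2, in the likelihood ratio test and with a block by plasma sample, 2 without the replicate block and 1 to 2 with 1 steer left out, and at 25 months it was 6, with 3 without steer 1. With CPM > 5 in all libraries, *bta-miR-374b* gave no value in EX or between the fractions. With 3 steers, a change that lies within the printed intervals cannot be told from the fitted one.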
